A study of Rattus norvegicus with 12 samples.

Results

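The SLC12 genes encode cation-chloride cotransporters, and 8 of them were followed here in rat striatum: *Slc12a1*, *Slc12a2*, *Slc12a3*, *Slc12a4*, *Slc12a5*, *Slc12a7*, *Slc12a8* and *Slc12a9*. They were found by symbol among the 17337 genes of the count table, and all 8 had at least 1 count. The members were selected on measured values, in that *Slc12a3* had been among the larger differences between MA24 and MA12 in earlier results of these data, and that difference is given only as a description. RNA was sequenced from the whole striatum of 12 male Sprague–Dawley rats, wild type by label, all of which had self-administered methamphetamine (MA) for 16 days on a short-access schedule. Training began at 8 weeks of age. MA12 (rats 21, 31, 4N and 7N) and MA24 (rats 9N, 14N, 15N and 16N) were sampled after 12 h and 24 h of abstinence. The 4 non-addicted rats (9, 11, 12 and 13) had the same 16 days of self-administration by label, without a stated time of sampling or criterion of addiction. No library here was labelled as saline, so by label no group without MA entered. The paper describes no group called non-addicted, and how these 4 rats relate to its groups is not known.

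Cation-chloride cotransporters carry chloride across the cell membrane together with sodium, potassium or both, without using ATP directly. In mature neurons, KCC2 (*Slc12a5*) moves chloride out and NKCC1 (*Slc12a2*) moves it in, and their balance sets whether GABA, the transmitter of most striatal neurons, hyperpolarizes a cell. NCC (*Slc12a3*) and NKCC2 (*Slc12a1*) are best known from the kidney, as the targets of thiazide and loop diuretics. WNK kinases act through SPAK (*Stk39*) and OSR1 (*Oxsr1*), which phosphorylate the cotransporters, switching the sodium-coupled ones on and the potassium-chloride ones off.

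Between 17908962 and 23850284 reads per rat were counted on genes. Levels are given as CPM, counts scaled to a common library size, with trimmed mean of M-values (TMM) scaling over the 12 libraries, and they are compared between rats, never between genes, since transcript length was not used. A floor of 3 counts corresponds to 0.123 to 0.169 CPM, a limit of counting error only. Markers of striatal projection neurons summed to between 14895 and 19198 CPM with none of 12 at 0, and those of cortical excitatory neurons to between 11.5 and 23.0 CPM. Of 3 cortical markers tested in MA24 vs. MA12, 2 were below an unadjusted edgeR p of 0.05, against 23.7% of all genes. These were *Slc17a7* (log2FC 1.03) and *Cux2* (-0.45), in opposite directions, and neither passed edgeR. DESeq2 and the likelihood ratio test each called 1 cortical marker. Over 12 lists of cell type and region markers, 4 of 77 genes tested passed in MA24 vs. MA12 (*Pdyn*, *Prkcd*, *Rgs5* and *Slc4a4*), against 5.07% of all genes, and the summed level was apart between these groups for 1 list, thalamus. In non-addicted vs. MA24, 3 of 80 passed (*Cldn5*, *Foxj1* and *Rsph1*), against 0.41% of all genes. The summed level was apart for 4 lists, choroid plexus being higher and oligodendrocyte, endothelial, and mural cell and fibroblast lower in non-addicted rats. *Foxj1* and *Rsph1* are ependymal markers, higher in non-addicted rats. All 7 ependymal markers tested were below an unadjusted p of 0.05, against 17.5% of all genes, with a median log2FC of 0.86. So were 9 of 10 oligodendrocyte and 6 of 6 endothelial markers, both with a median of -0.36. Ependymal summed levels overlapped. In non-addicted vs. MA12, 2 of 79 passed (*Acta2* and *Pdyn*), against 0.214%, and 2 lists, oligodendrocyte precursor and mural cell and fibroblast, were lower in non-addicted rats. In bulk tissue, fewer cells of a type and less RNA per cell cannot be told apart. All libraries carried the same batch label. All MA24 rats had numbers ending in N, as did 2 of 4 MA12 rats and no non-addicted rat, and what this suffix stands for is not given in the sources used here. The longer abstinence cannot be told apart from any difference in the hour of sampling.

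*Slc12a3*, the gene of the sodium-chloride cotransporter of the distal kidney tubule, had counts at a low level in every striatal library. Its levels in MA12 rats 21, 31, 4N and 7N were 3.70, 4.85, 1.46 and 3.78 CPM. In MA24 rats 9N, 14N, 15N and 16N they were 7.27, 7.89, 5.39 and 6.96 CPM. Every MA24 rat thus lay above every MA12 rat, a separation that 15.6% of all 10754 genes tested in MA24 vs. MA12 showed in either direction, and from which nothing is read here because this contrast chose the gene. The means were 6.88 ± 1.06 CPM in MA24 and 3.45 ± 1.43 CPM in MA12 (SD, n = 4), and the fitted log2FC was 0.99 (SE 0.28). The raw counts behind these levels ran from 31 in rat 4N to 169 in rat 9N. Without rat 4N the log2FC was 0.74, without rat 31 it was 1.21, and among rats with N numbers alone, 2 MA12 against 4 MA24, it was 1.41.

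The non-addicted rats 9, 11, 12 and 13 had *Slc12a3* at 4.58, 5.57, 4.92 and 2.34 CPM, a mean of 4.35 ± 1.40 (SD, n = 4). These values overlapped both abstinence groups. Against MA12 the log2FC of non-addicted rats was 0.33, with a 95% interval from -0.36 to 1.02 and an edgeR adjusted p of 0.737. Against MA24 it was -0.66, with an interval from -1.16 to -0.15, an unadjusted p of 0.0138 and an edgeR adjusted p of 0.188, so it did not pass. That comparison shares its MA24 rats with the contrast that chose the gene. Within groups, the variance of its counts was 8.30 times that of counting error, and the SD of log2 CPM was 0.73 in MA12 against 0.23 in MA24.

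**Figure D1:**
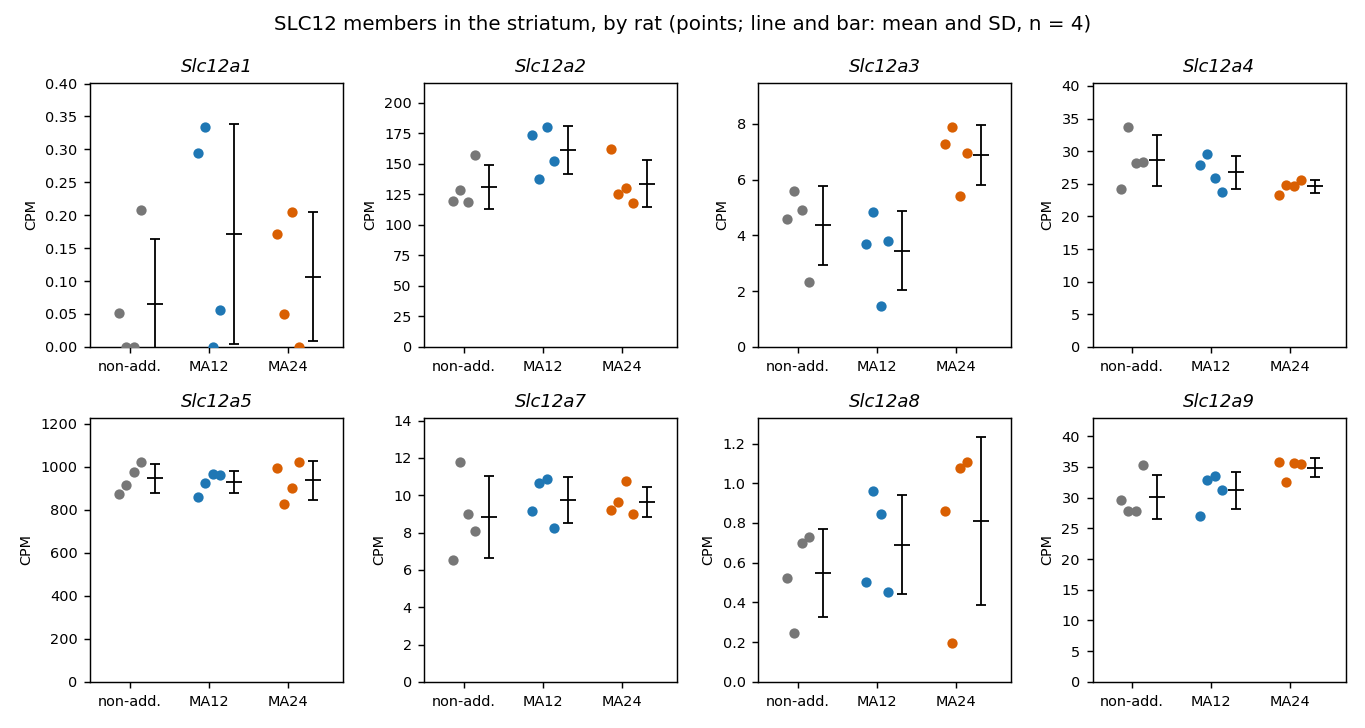
CPM of the 8 cotransporter genes by rat, 1 panel a gene, with the mean and SD (n = 4) beside each group and every axis starting at 0, where the lower bar of *Slc12a1* is cut. The MA24 rats have *Slc12a3* at 5.39 to 7.89 CPM, above the MA12 range of 1.46 to 4.85 CPM, while *Slc12a5* stays between 829 and 1024 CPM in all 12 rats.

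The sequence around the RefSeq start of *Slc12a3* is shown because the description above turns on this gene. The window holds 250 bases before and 50 bases after the start, on the minus strand of chr19:10675001-10675300 in build GRCr8, while the counts were made on rn6. No base is in capitals, since the E-box CACGTG searched for below was not in this window.
Slc12a3: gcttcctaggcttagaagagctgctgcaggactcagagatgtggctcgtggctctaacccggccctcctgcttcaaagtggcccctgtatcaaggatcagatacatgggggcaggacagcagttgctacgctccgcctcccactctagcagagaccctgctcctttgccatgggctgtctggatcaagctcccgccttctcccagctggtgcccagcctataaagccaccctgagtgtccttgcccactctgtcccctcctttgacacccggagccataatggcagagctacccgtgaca

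In the RefSeq gene list of GRCr8, the span of *Slc12a3* also holds the miRNA gene *Mir138-2*, on the same strand and 5083 bases upstream of that start, and a predicted protein-coding gene, LOC120098571. Of these, only *Mir138-2* matched a row of the count table. As *Mir138-2* lies upstream of that start, the span begins further upstream, and the window printed above is not at its 5' end. *Slc12a4*, *Slc12a5* and *Slc12a8* each overlap 1 lncRNA gene in that list, without a row of its own. miR-138 is abundant in brain and is known for limiting the size of dendritic spines. The products of *Mir138-2* are shown because the count table has a row for this gene, with the seed (bases 2 to 8) in capitals, from RefSeq.
rno-miR-138-5p: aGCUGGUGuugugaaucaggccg
rno-miR-138-2-3p: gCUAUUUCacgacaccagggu
The libraries held poly-A RNA, so a count on *Mir138-2* stands for a longer transcript over the hairpin and not for the mature miRNA. How reads on overlapping genes were assigned is not given in the sources used here, and the library kit does not mark strand. Gene counts therefore cannot tell whether reads on *Slc12a3* come from the NCC transcript or from a transcript over *Mir138-2*.

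*Mir138-2* was singled out after its values were seen, so it too is a description with no test. Its levels in MA12 rats 21, 31, 4N and 7N were 1.64, 2.01, 1.13 and 1.24 CPM. In MA24 rats 9N, 14N, 15N and 16N they were 2.54, 3.30, 2.31 and 3.01 CPM. As for *Slc12a3*, every MA24 rat was above every MA12 rat. The log2FC was 0.88 (SE 0.32), from 133 counts summed over MA12 and 228 over MA24. Non-addicted rats had 2.24, 1.87, 1.60 and 2.55 CPM, overlapping both groups. Over the 12 libraries the log2 CPM of *Mir138-2* and *Slc12a3* had Pearson's r = 0.66 and Spearman's rho = 0.62, and r = 0.26 once group means were removed. Without non-addicted rat 13 and MA12 rat 4N, the 2 farthest from the median of *Slc12a3*, r was 0.87 over 10 libraries. That r keeps the group means, and so the difference for which both genes were singled out. Non-addicted rat 13 had the lowest *Slc12a3* of its group and the highest *Mir138-2*.

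The nearest genes of the count table on either side of *Slc12a3* gave other patterns. *Herpud1*, which acts in the degradation of misfolded proteins of the endoplasmic reticulum, had a log2FC of 0.10 in MA24 vs. MA12 (edgeR adjusted p = 0.582), and its highest levels were in non-addicted rats, at 59.3 to 77.3 CPM. *Nup93*, a scaffold protein of the nuclear pore, had a log2FC of -0.23 (edgeR adjusted p = 0.167) and lay at 35.3 to 39.7 CPM in MA12 against 29.1 to 34.3 CPM in MA24. Neither neighbour passed in any of the 3 contrasts.

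**Figure D2:**
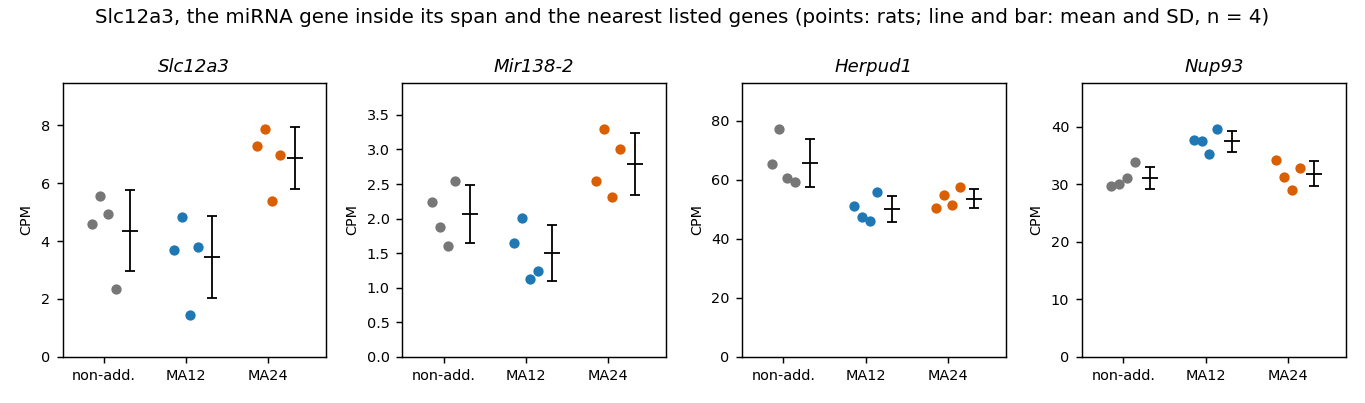
CPM by rat of *Slc12a3*, of *Mir138-2* inside its span and of the nearest listed genes *Herpud1* and *Nup93*, with mean and SD (n = 4) and axes starting at 0. *Slc12a3* and *Mir138-2* are higher in all MA24 rats than in all MA12 rats, and *Nup93* is lower in all MA24 rats.

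Among 10764 genes with a mean count of at least 50, the genes whose log2 CPM over the 12 libraries was most like that of *Slc12a3* were *Nfxl1* (Pearson's r = 0.94), *Kdm4a* (0.92), *Setd4* (0.92), *Cnot10* (0.91) and *Lppr3* (0.91). *Kdm4a* encodes a histone demethylase and *Cnot10* a subunit of the CCR4-NOT deadenylase complex. For all 5, as for *Slc12a3*, MA12 rat 4N was the lowest and MA24 rat 14N the highest of the 12 rats. With group means removed r was between 0.85 and 0.91, in the same libraries that ranked these genes. Without the 2 rats farthest from the median it was 0.72 to 0.89 over 10 libraries. *Wnk4*, which encodes the kinase best known for controlling NCC, ranked 1647 with r = 0.41, which became -0.45 with group means removed and 0.78 without the same 2 rats. Genes at the top of such a ranking were chosen for their r, and all points share libraries and scaling.

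*Slc12a2*, the gene of NKCC1, the sodium-potassium-chloride importer, had 2237 to 4130 counts per rat. Its levels were 174, 138, 180 and 152 CPM in MA12 rats 21, 31, 4N and 7N. They were 162, 125, 130 and 118 CPM in MA24 rats 9N, 14N, 15N and 16N, and 120, 128, 119 and 157 CPM in non-addicted rats 9, 11, 12 and 13. The MA12 mean of 161 ± 19.6 CPM was the highest of the 3, above 134 ± 19.7 in MA24 and 131 ± 18.1 in non-addicted rats (SD, n = 4), but the groups overlapped. MA24 vs. MA12 gave a log2FC of -0.27 (95% interval -0.51 to -0.02), with an unadjusted p of 0.0323 and an edgeR adjusted p of 0.168. Non-addicted vs. MA12 gave -0.30 (interval -0.55 to -0.06), with an unadjusted p of 0.0165 and an edgeR adjusted p of 0.282. These contrasts share the MA12 rats. Non-addicted vs. MA24 gave -0.03, with an interval from -0.28 to 0.22. Choroid plexus epithelium expresses *Slc12a2*, and its 7 markers summed to 8.54 to 27.4 CPM in non-addicted rats, 4.99 to 10.7 in MA12 and 5.28 to 8.23 in MA24, none of them at 0 in all rats. Oligodendrocyte markers summed to 12321 to 18217, 12918 to 22900 and 18948 to 22480 CPM in the same order. Markers of oligodendrocyte precursors summed to 169 to 201, 205 to 250 and 179 to 221 CPM, and those of mural cells and fibroblasts, with *Col1a2* at 0 in all rats, to 85.9 to 109, 118 to 182 and 111 to 136 CPM. The part of these cells in the levels of *Slc12a2* was not tested.

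*Slc12a1*, the gene of NKCC2, was near the floor. It had 5 counts over the non-addicted rats, 16 over MA12 and 9 over MA24, with 0 in 4 rats and 3 or fewer in 7 of 12. Its mean count did not exceed 4 in any contrast, so it was not tested, and no fold is given.

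*Slc12a5*, the gene of the neuronal chloride extruder KCC2, varied least of the 8 members on the log2 scale. Its 12 levels lay between 829 and 1024 CPM, 1.23 times from the lowest to the highest, with 16746 to 23778 counts per rat. The means were 947 ± 66.3 CPM in non-addicted rats, 928 ± 50.4 in MA12 and 937 ± 88.7 in MA24 (SD, n = 4), and the groups overlapped. It was among the 15% of genes with the lowest variance in 2 of the contrasts and is read there from the fit without that filter. MA24 vs. MA12 then gave a log2FC of 0.01 with a 95% interval from -0.16 to 0.19, which is 0.893 to 1.14 as a fold. Non-addicted vs. MA12 gave 0.02, with an interval from -0.14 to 0.19, and non-addicted vs. MA24 gave 0.02, from -0.19 to 0.22. At this depth a change of 1.5-fold lay outside all 3 intervals.

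The count ratio of *Slc12a2* to *Slc12a5* within each library, on the log2 scale, is a description of how chloride import and export transcripts moved together, not a comparison of their amounts. It was -2.30, -2.75, -2.43 and -2.66 in MA12 rats 21, 31, 4N and 7N, and -2.62, -2.73, -2.79 and -3.12 in MA24 rats 9N, 14N, 15N and 16N. Non-addicted rats had -2.86, -2.84, -3.04 and -2.70. The mean was -2.53 ± 0.20 in MA12, -2.81 ± 0.21 in MA24 and -2.86 ± 0.14 in non-addicted rats (SD, n = 4). MA12 overlapped MA24 as well as the non-addicted rats.

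The other potassium-chloride cotransporters showed small differences. *Slc12a4*, the gene of the widely expressed volume regulator KCC1, lay at 24.2 to 33.7 CPM in non-addicted rats, 23.8 to 29.6 in MA12 and 23.4 to 25.6 in MA24. Its log2FC was -0.12 in MA24 vs. MA12 (95% interval -0.35 to 0.11) and 0.22 in non-addicted vs. MA24 (interval -0.03 to 0.47, edgeR adjusted p = 0.331). *Slc12a7*, the gene of KCC4, lay at 6.51 to 11.8 CPM in non-addicted rats, 8.24 to 10.9 in MA12 and 8.97 to 10.7 in MA24. Its log2FC in MA24 vs. MA12 was -0.02, with an interval from -0.35 to 0.32. For both genes the 3 groups overlapped.

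*Slc12a8* and *Slc12a9* are the least understood members of the family. *Slc12a8*, which has been described as a transporter of nicotinamide mononucleotide, had only 4 to 23 counts per rat, and its intervals were wide. In MA24 vs. MA12 the log2FC was 0.22 with a 95% interval from -0.94 to 1.38, and the interval as a fold ran from 0.522 to 2.598. MA24 rat 14N had 0.197 CPM against 0.860 to 1.11 in the other MA24 rats. *Slc12a9* had 553 to 833 counts per rat. Its levels in MA24 rats 9N, 14N, 15N and 16N were 35.8, 32.5, 35.6 and 35.6 CPM, against 26.9, 32.9, 33.6 and 31.2 CPM in MA12 rats 21, 31, 4N and 7N. The ranges overlapped, and the log2FC was 0.16 (interval -0.06 to 0.39, edgeR adjusted p = 0.352). Non-addicted vs. MA24 gave -0.21 (interval -0.44 to 0.02, edgeR adjusted p = 0.321), where 3 non-addicted rats lay at 27.8 to 29.7 CPM and rat 13 at 35.3 CPM.

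No member passed edgeR's quasi-likelihood test at an adjusted p below 0.05 in any contrast, with *Slc12a3* left out of MA24 vs. MA12. In MA24 vs. MA12 it was 0 of 5 members tested, against 5.07% of all genes. There 1 member, *Slc12a2*, had an unadjusted p below 0.05, against 23.7% of all genes. In non-addicted vs. MA12 it was 0 of 6 against 0.214%. *Slc12a2* was again below 0.05 unadjusted, against 12.4% of all genes. In non-addicted vs. MA24 it was 0 of 7 against 0.41%. *Slc12a3* was below 0.05 unadjusted there, against 17.5% of all genes. It is among these 7 and in their median below, although this contrast shares its MA24 rats with the one that chose the gene. Nothing is therefore read from its p-value here. DESeq2 and edgeR's likelihood ratio test also called 0 members in each. With so few members, counts of 0 passing and of 1 unadjusted lie near the background. The groups overlapped for every member counted, 0 of 5, 0 of 6 and 0 of 7, where 15.6%, 7.1% and 10% of all genes did not overlap. The median log2FC of the members tested was -0.02, -0.10 and -0.12 in these contrasts, against -0.02, -0.02 and 0.0077 over all genes. *Slc12a5* was outside the first 2 of these counts through the variance filter, and *Slc12a1* outside all 3 through its counts.

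**Figure D3:**
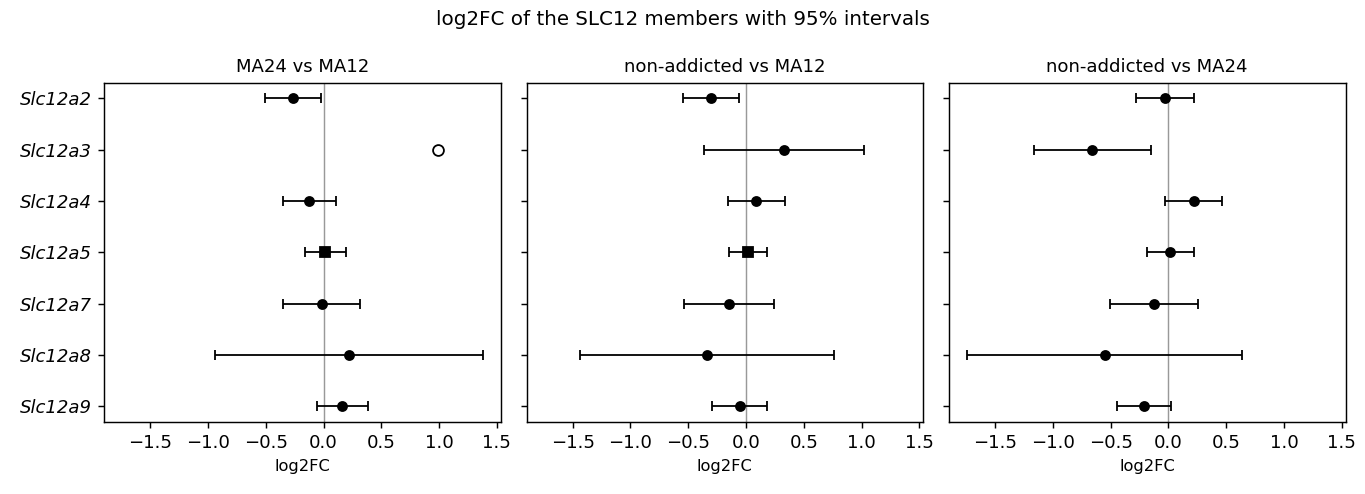
log2FC (x axis) of 7 members in the 3 contrasts, first-named group minus second, with 95% intervals from edgeR. Squares are values of *Slc12a5* from the fit without the variance filter, and the open circle is the untested *Slc12a3* value of 0.99 in MA24 vs. MA12. Intervals are narrow for *Slc12a5* and wide for *Slc12a8*.

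Among the regulators of the cotransporters, 3 genes passed in MA24 vs. MA12. Of 24 listed regulators, 22 were in the table and 16 were tested in MA24 vs. MA12. *Wnk4* rose, and *Neto2* and *Prkcd* fell, so 3 of 16 passed against 5.07% of all genes. For 6 of the 16 the MA24 and MA12 ranges were apart, against 15.6% of genes. The list's median log2FC was -0.17, against -0.02 over all genes. In the other contrasts 0 of 18 and 0 of 19 passed, against 0.214% and 0.41% of all genes. In each, 3 regulators were below an unadjusted p of 0.05, against 12.4% and 17.5% of all genes. DESeq2 and the likelihood ratio test also called 0 there.

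*Wnk4* stood at 73.4, 85.9, 80.9 and 84.2 CPM in MA24 rats 9N, 14N, 15N and 16N. In MA12 rats 21, 31, 4N and 7N it stood at 54.9, 53.8, 59.5 and 65.6 CPM, all below MA24. It rose by a log2FC of 0.47 (SE 0.10, 95% interval 0.26 to 0.68, edgeR adjusted p = 0.0146), a fold of 1.39. Non-addicted rats, at 63.4 to 82.3 CPM, overlapped both groups and passed against neither (adjusted p = 0.288 and 0.329 by edgeR against MA12 and MA24). Without MA12 rat 21 the log2FC was 0.44 with an edgeR adjusted p of 0.0526. Among rats with N numbers alone it was 0.38 with an edgeR adjusted p of 0.178, and with the suffix as a covariate 0.38 and 0.152, so the call was lost in both.

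*Wnk3*, whose kinase acts on sodium-coupled and potassium-coupled members in opposite directions, had the other large WNK difference. Its levels were 6.14, 6.94, 5.46 and 5.19 CPM in MA12 rats 21, 31, 4N and 7N, above 3.35, 2.12, 4.67 and 2.95 CPM in MA24 rats 9N, 14N, 15N and 16N. The groups did not overlap, and the log2FC of -0.86 (95% interval -1.38 to -0.34) had an edgeR adjusted p of 0.0516, just outside the threshold, while DESeq2 and the likelihood ratio test called it. *Wnk3* was also called by edgeR with all 3 groups in one fit, and without MA12 rat 7N or MA24 rat 15N. It was not called without any other single rat, among rats with N numbers alone, or with the suffix as a covariate. In non-addicted rats it was 3.44, 3.99, 3.85 and 3.33 CPM, also below every MA12 rat (log2FC -0.71, edgeR adjusted p = 0.1503). *Wnk1*, the most widely expressed WNK kinase, was removed by the variance filter, and without that filter its log2FC in MA24 vs. MA12 was -0.02 with an interval from -0.18 to 0.14. *Wnk2* gave -0.07, from -0.32 to 0.18. The downstream kinases gave -0.20 for *Stk39* (interval -0.42 to 0.02) and 0.13 for *Oxsr1* (interval -0.08 to 0.35).

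*Neto2*, an auxiliary protein of kainate receptors that also binds KCC2, had 82.5, 64.1, 87.6 and 79.2 CPM in MA12 rats 21, 31, 4N and 7N. In MA24 rats 9N, 14N, 15N and 16N it had 59.8, 56.9, 58.1 and 52.5 CPM, below every MA12 rat. It fell by 0.46 on the log2 scale (SE 0.11, edgeR adjusted p = 0.0202). The call was lost without MA12 rat 21 (adjusted p = 0.0597 by edgeR), without MA12 rat 4N (0.0504), or leaving out MA24 rat 16N (0.0551). It was also lost with the suffix as a covariate (log2FC -0.55, edgeR adjusted p = 0.0582), but not among rats with N numbers alone. Non-addicted rats, at 61.7 to 68.3 CPM, lay above all MA24 rats, with an edgeR adjusted p of 0.246.

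*Prkcd*, the gene of protein kinase C delta, had 50.3, 39.2, 19.2 and 29.5 CPM in MA12 rats 21, 31, 4N and 7N and 19.2, 16.3, 16.2 and 20.05 CPM in MA24 rats 9N, 14N, 15N and 16N. It fell by 0.95 on the log2 scale (SE 0.20, edgeR adjusted p = 0.0146), although the groups overlapped. Non-addicted rat 11 had 58.1 CPM, the highest of all, while non-addicted rat 13 had 15.1, the lowest. With N numbers alone the log2FC was -0.43 with an edgeR adjusted p of 0.246, and with the suffix as a covariate -0.44 and 0.239. With all 3 groups in one fit the adjusted p was 0.0775 by edgeR. *Prkcd* is also a marker of thalamus, a region near the striatum, and the 5 thalamus markers, with it included, summed to 29.5 to 59.2 CPM in MA12, 25.2 to 28.2 in MA24 and 26.1 to 69.7 in non-addicted rats. Of the 3 thalamus markers tested in MA24 vs. MA12, only *Prkcd* passed. The part of thalamic tissue in its fall was not tested.

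**Figure D4:**
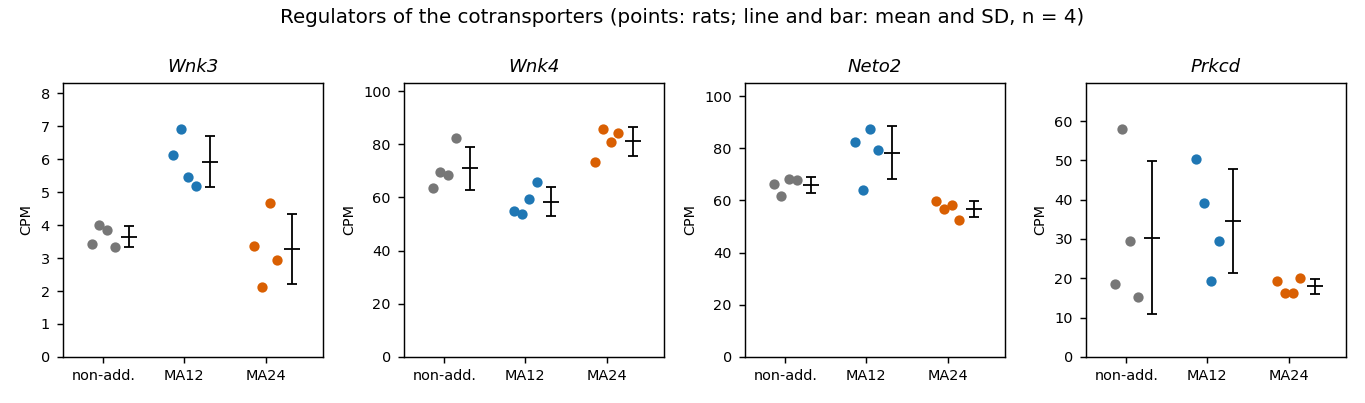
CPM by rat of *Wnk3*, *Wnk4*, *Neto2* and *Prkcd*, with mean and SD (n = 4) and axes starting at 0. *Wnk4* is higher, and *Wnk3* and *Neto2* lower, throughout MA24 than in any MA12 rat, while *Prkcd* overlaps because MA12 rat 4N lies at 19.2 CPM.

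Genes that build or share the ion gradients used by the cotransporters were also counted. The Na,K-ATPase, which makes the sodium and potassium gradients, had 0 of 8 genes passing edgeR in MA24 vs. MA12, against 5.07% of all genes. It was 0 of 7 in each other contrast, against 0.214% and 0.41%. In each of the 3 contrasts 1 gene was below an unadjusted p of 0.05, against 23.7%, 12.4% and 17.5% of all genes. DESeq2 and the likelihood ratio test called 0. Of 21 genes for other chloride and bicarbonate transport, 3 passed edgeR in MA24 vs. MA12, all lower in MA24, against 5.07% of all genes. They were the sodium-driven chloride-bicarbonate exchanger *Slc4a8* (log2FC -0.79, edgeR adjusted p = 0.0499), the astrocytic sodium-bicarbonate cotransporter *Slc4a4* (-0.59, 0.0266) and *Lrrc8b*, a subunit of volume-regulated anion channels (-0.46, 0.0397). DESeq2 and the likelihood ratio test each called 7, and the share of all genes called by these tests is not given here. The list's median log2FC was -0.26, and 12 of its 21 genes had an unadjusted p below 0.05, against 23.7% of all genes. In the other contrasts 0 of 20 and 0 of 21 passed edgeR's main test, against 0.214% and 0.41% of all genes. In each, 4 were below 0.05 unadjusted, against 12.4% and 17.5% of all genes. DESeq2 and the likelihood ratio test each called 1 in non-addicted vs. MA12 and 0 in non-addicted vs. MA24.

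NCC and SGK1, a kinase upstream of NCC, are known targets of aldosterone and glucocorticoids in the kidney. Of 11 genes of the mineralocorticoid and glucocorticoid pathway, 0 passed edgeR in MA24 vs. MA12, against 5.07% of all genes. Of these 11, 5 were below an unadjusted p of 0.05, against 23.7% of all genes, with 1 called by DESeq2 and 0 by the likelihood ratio test, and *Sgk1* had a log2FC of 0.04. In non-addicted vs. MA12, *Zbtb16* was higher in non-addicted rats (log2FC 1.90, SE 0.26, edgeR adjusted p = 0.0040), 1 of 11 against 0.214% of all genes. DESeq2 and the likelihood ratio test each called 2 of the list there. In non-addicted vs. MA24 it was 0 of 10 against 0.41%, and 0 by either other test. There 3 were below 0.05 unadjusted, against 17.5% of all genes.

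Clock genes passed in both contrasts with MA12. In MA24 vs. MA12, 5 of 14 passed against 5.07% of all genes, 4 higher and 1 lower. The 4 with the largest change were *Ciart* (log2FC 0.98), *Per2* (0.96), *Dbp* (0.66) and *Arntl* (-0.61), with edgeR adjusted p-values of 0.0063, 0.0152, 0.0063 and 0.0063. In non-addicted vs. MA12, 4 of 13 passed against 0.214% of all genes, with *Per2* at 1.03, *Ciart* at 0.99, *Per3* at 0.64 and *Arntl* at -0.60. In non-addicted vs. MA24, 0 of 11 passed edgeR, against 0.41% of all genes. There 2 were below an unadjusted p of 0.05, against 17.5% of all genes, and 0 passed by DESeq2 or the likelihood ratio test. The hour of sampling was not given for any rat, and its part in the levels of *Slc12a3* or *Wnk4* was not tested.

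Because the lists above hold clock genes and genes that respond to steroids, 4 motifs were searched on both strands in the RefSeq windows of all 8 members, 9 windows in all, as *Slc12a1* has 2. They were the E-box CACGTG, bound by CLOCK and ARNTL, the D-box (TTATGTAA or TTACGTAA), bound by DBP, the core TGTTCT of the glucocorticoid response element, and the cAMP response element TGACGTCA. No motif contains another. The E-box was in the windows of *Slc12a7* and *Slc12a9*, and in 6.42% of 33469 windows. TGTTCT was in 1 member window, that of *Slc12a1*, and in 20.7% of all. The D-box (1.01% of windows) and TGACGTCA (1.83%) were in none of the 9. The 2 windows with an E-box are shown with it in capitals, since their genes can be set against the clock genes. *Slc12a7* is read from the minus strand of chr1:31354576-31354875 and *Slc12a9* from the plus strand of chr12:25005549-25005848, both in GRCr8.
Slc12a7: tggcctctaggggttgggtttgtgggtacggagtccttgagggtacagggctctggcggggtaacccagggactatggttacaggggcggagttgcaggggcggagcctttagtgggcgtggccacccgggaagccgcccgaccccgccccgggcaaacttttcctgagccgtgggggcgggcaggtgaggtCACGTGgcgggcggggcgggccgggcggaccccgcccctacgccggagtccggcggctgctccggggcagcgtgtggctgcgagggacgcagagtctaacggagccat
Slc12a9: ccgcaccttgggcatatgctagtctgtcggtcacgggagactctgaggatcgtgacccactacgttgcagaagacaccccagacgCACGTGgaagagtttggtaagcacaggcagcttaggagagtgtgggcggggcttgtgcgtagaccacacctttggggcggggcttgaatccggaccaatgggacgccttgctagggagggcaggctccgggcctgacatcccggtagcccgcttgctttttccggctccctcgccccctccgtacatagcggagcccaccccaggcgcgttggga
The E-box starts 58 bases before the start of *Slc12a7* and 165 bases before that of *Slc12a9*. Neither gene passed in any contrast. The window of *Slc12a3* held none of the 4 motifs, which says only that these letters are not there. No window at the upstream end of the *Slc12a3* span was among the 9. A match of letters is a description and not a binding site.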

How the data were processed

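According to the study's methods, poly-A RNA of each striatum was sequenced as paired-end reads with a kit that does not mark strand. The authors used Cutadapt 1.18 for trimming, STAR 2.7.0e for alignment to rn6 and featureCounts for counting, and HTSeq 0.12.4 is also named in the submitters' processing notes. The values deposited by the authors are raw counts per gene symbol, without normalization, and all 12 columns were used.

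In every contrast, only genes averaging more than 4 counts over the 8 libraries were kept, libraries were scaled by TMM, and the 15% of genes with the lowest variance of log2 CPM (prior count 2) were removed. edgeR 4.0.16 (R 4.3.3; glmQLFit and glmQLFTest) gave log2FC, 95% intervals and p-values, adjusted by Benjamini-Hochberg over all 10754, 10758 and 10744 genes tested. Passing means an adjusted p below 0.05. Shares of all genes called are those of edgeR's quasi-likelihood test only. The steps were tested on simulated data. Each library was 1 rat, and no 2 libraries of a group agreed within counting error (chi-square per degree of freedom 9.72 or more).

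Named were the 8 members, the WNK, SPAK and OSR1 kinase genes, regulators that passed, up to 4 passing genes of each other list, the 5 genes most like *Slc12a3* and its nearest neighbours. *Mir138-2* was added after its values were seen. The members and lists were chosen with earlier results of these data known. RefSeq names and sequences are of GRCr8, and all 8 members matched. Alternatives were DESeq2 1.42.0, other size factors, tests and filters, each rat left out in turn, and fits by the suffix of the rat number. Of 176 listed symbols, 13 matched no row and were left out.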

Additional observations from a re-analysis of the deposited data

Results flagged for a closer look

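Each of the 8 members was examined in each group of 4 rats for a value far from the other 3, as the gap to the nearest rat over the whole range of log2 CPM. Of 24 such groups, chance alone would give about 1.2 beyond Dixon's limit at 95%, and 2 were beyond it. Both were MA24 rat 14N as the lowest of its group. For *Slc12a8* the gap was 0.837 of the range, from 4 counts in that rat, and for *Slc12a9* it was 0.921, from 660 counts at 32.5 CPM. Rat 14N was also the MA24 rat with the highest *Slc12a3*. Without rat 14N no member passed in MA24 vs. MA12 or in non-addicted vs. MA24.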

How the results depend on the processing

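No member passed under any alternative in any contrast. The 3 regulators passing in MA24 vs. MA12 became 1 among rats with N numbers alone (*Neto2*) and 0 with the suffix as a covariate, and 1 to 4 when single rats were left out, the 1 being without MA12 rat 21, where *Prkcd* remained. DESeq2 and the likelihood ratio test each called 4, *Wnk3* being added, and the share of all genes called by these tests is not given here. In non-addicted vs. MA12 the 0 regulators became 1, *Sgk1*, among rats without N numbers, and 0 to 1 when single rats were left out, the 1 being *Sgk1* without MA12 rat 7N. In non-addicted vs. MA24 the range was 0 to 1, the 1 being *Prkcd* without non-addicted rat 13. The cause of these differences was not tested, beyond the smaller number of rats.

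Of 377 log2FC of single members, regulators and *Mir138-2* under an alternative, 171 with a rat left out and 178 others kept their direction and side of the threshold, 4 and 6 were no longer past it, all of *Wnk4*, *Neto2* or *Prkcd*, 9 and 7 turned sign, all of them near 0 in the reported fit, and 2 of *Mir138-2*, by the suffix of the rat number, moved by more than the spread between rats. Alternatives for the regulators and *Mir138-2* were chosen after seeing the data. In MA24 vs. MA12 among rats with N numbers, *Slc12a5* gave -0.040 and *Slc12a7* 0.012, and with the suffix as a covariate *Slc12a7* gave 0.0096. In non-addicted vs. MA12 among rats without N numbers, *Slc12a4* gave -0.00071 and *Slc12a9* 0.013, and with the covariate they gave -0.013 and 0.0017. Leaving out single rats moved *Slc12a7* in MA24 vs. MA12 from -0.090 to 0.040, *Slc12a2* in non-addicted vs. MA24 from -0.13 to 0.078 and *Slc12a5* there from -0.027 to 0.061. In MA24 vs. MA12, the 17 alternatives gave 0.74 to 1.41 for *Slc12a3* and 0.77 to 1.23 for *Mir138-2*. Both were chosen on this contrast and their groups do not overlap, so their direction says nothing of stability.

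Each library came from a different rat by label, so the groups hold no pairs and no paired analysis was made. *Slc12a1* and *Slc12a8* are limited by depth, *Slc12a8* having 4 to 23 counts per rat.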
